A study of Mus musculus with 10 samples.

Results

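The genes described here belong to the growth hormone and insulin-like growth factor (IGF) axis, and they were followed in liver first and then in 4 other tissues. Probe sets were taken where the array annotation named only 1 of 10 listed genes, namely Ghr, Stat5b, Socs2, Igf1, Igfals, Igfbp1, Igfbp2, Igfbp3, Mup5 and Elovl3. All 10 genes were found, with 22 probe sets among them, out of 18194 genes that the array names. The mice were male and of the outbred ICR stock, aged 28 months or 4 months, and the other tissues were spleen and the jejunum, ileum and distal colon of the intestine. For every tissue, RNA of 9 mice aged 28 months went into 1 pool in equal amounts and RNA of 6 mice aged 4 months into another, and 1 Affymetrix expression array was hybridised per pool. The older mice had been bought at 8 months and the younger at 2 months, and all were caged singly under specific-pathogen-free conditions on an AIN-93 diet. No allele or drug differed between the ages, and hours of killing or feeding are not given in the labels.

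Growth hormone from the pituitary binds its receptor on hepatocytes and activates the kinase JAK2, which phosphorylates the transcription factor STAT5B. STAT5B turns on the genes for IGF-1 and for the acid-labile subunit, and also the genes of feedback inhibitors such as SOCS2. IGF-1 circulates bound to binding proteins, mostly in a complex of IGFBP3 and the acid-labile subunit. IGFBP1 is instead a short-lived binding protein of the liver, raised by fasting and held down by insulin. In male mice, pulses of growth hormone also maintain sex-biased liver genes, among them those of major urinary proteins.

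Promoter windows from RefSeq, 250 bases before to 50 bases after an annotated start, were available for 7 of the 10 genes. Those of Igfbp1 and Igfals are shown because they were the only windows of these 7 genes with a match to a motif of the pathway. Igfbp1 held the forkhead core CAAAACA, known from the insulin response element of the human gene, and Igfals held the STAT5 element TTCNNNGAA. Capitals mark the matches, and both windows lie on the plus strand of GRCm38.p6, at chr11:7197537-7197836 for Igfbp1 and at chr17:24877981-24878280, around 1 of several annotated starts, for Igfals.
Igfbp1 promoter: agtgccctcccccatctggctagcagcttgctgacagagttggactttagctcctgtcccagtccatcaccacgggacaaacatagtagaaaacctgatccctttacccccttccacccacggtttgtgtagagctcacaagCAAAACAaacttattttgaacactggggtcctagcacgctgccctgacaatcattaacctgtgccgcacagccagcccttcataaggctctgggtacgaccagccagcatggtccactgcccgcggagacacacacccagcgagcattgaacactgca
Igfals promoter: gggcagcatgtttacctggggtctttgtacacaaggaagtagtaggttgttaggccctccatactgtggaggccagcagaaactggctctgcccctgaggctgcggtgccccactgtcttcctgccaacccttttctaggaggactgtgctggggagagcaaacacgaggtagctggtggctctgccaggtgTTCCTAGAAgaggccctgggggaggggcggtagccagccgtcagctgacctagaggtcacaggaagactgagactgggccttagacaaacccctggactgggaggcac
The Igfbp1 match lay 108 to 102 bases before the start and the Igfals match 58 to 50 bases before it. Searched on both strands, the forkhead core occurred in 6.28% of 32841 promoter windows of the genome and the STAT5 element in 8.3%. Another Igfals window held the STAT5 element TTCTCAGAA, and the windows of the other 5 genes held neither motif. A match is a description of these letters only.

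Values below are signals in arbitrary units, scaled so that each array had a trimmed mean of 500 units. A signal under 111 units, the median of all signals, was treated as not above background and raised to that floor before a ratio was taken. Each gene is represented by its brightest probe set, and ratios divide the 28-month signal by the 4-month signal and are given as log2 values unless called a fold. With 1 array per tissue and age there was no replicate check and no test within a tissue. The number of arrays therefore limits the precision, and the spread between mice cannot be seen in pooled RNA. The 28-month arrays of jejunum, ileum and distal colon are numbered apart from all other arrays of the series. Whether they were processed apart is not known, and within the intestine age and this separate numbering cannot be told apart. Probe sets of the same gene gave ratios whose median SD was 0.12 in liver (5078 genes) and 0.11 to 0.14 in the other tissues, which is an internal error only. Hepatocyte marker genes summed to 351456 units at 28 months and 355969 units at 4 months in liver, and 0 of 12 were 2-fold apart. All 5 splenic markers were measured in spleen and all 5 ileal enterocyte markers in ileum. The spleen arrays also carried markers of pancreatic acinar cells, which summed to 1416 units at 28 months and 45235 units at 4 months, with 8 of 8 measured markers 2-fold or more lower at 28 months.

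In the liver of 28-month mice the transcript signals of Ghr, Igf1 and Igfals stood close to their 4-month levels. Igfbp1 was 3.04-fold higher and Mup5 was 5.15-fold lower. Socs2, the feedback inhibitor, was 1.98-fold lower, and Elovl3 was 1.66-fold lower. All 10 genes were above the floor in liver, so each could be measured. Of the 10, 1 was 2-fold or more higher, against 1.29% of 12001 measured genes, and 1 was 2-fold or more lower, against 0.167%. At 1.5-fold, 2 were higher and 3 were lower, against 4.0% and 0.8% of measured genes. At 3-fold, 1 was higher and 1 was lower, against 0.333% and 0.0417%. Their median ratio was -0.09, beside -0.01 over all measured genes. The 10 genes were chosen with earlier results of these data known, so these shares are a description and no measure of enrichment.

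**Figure D1:**
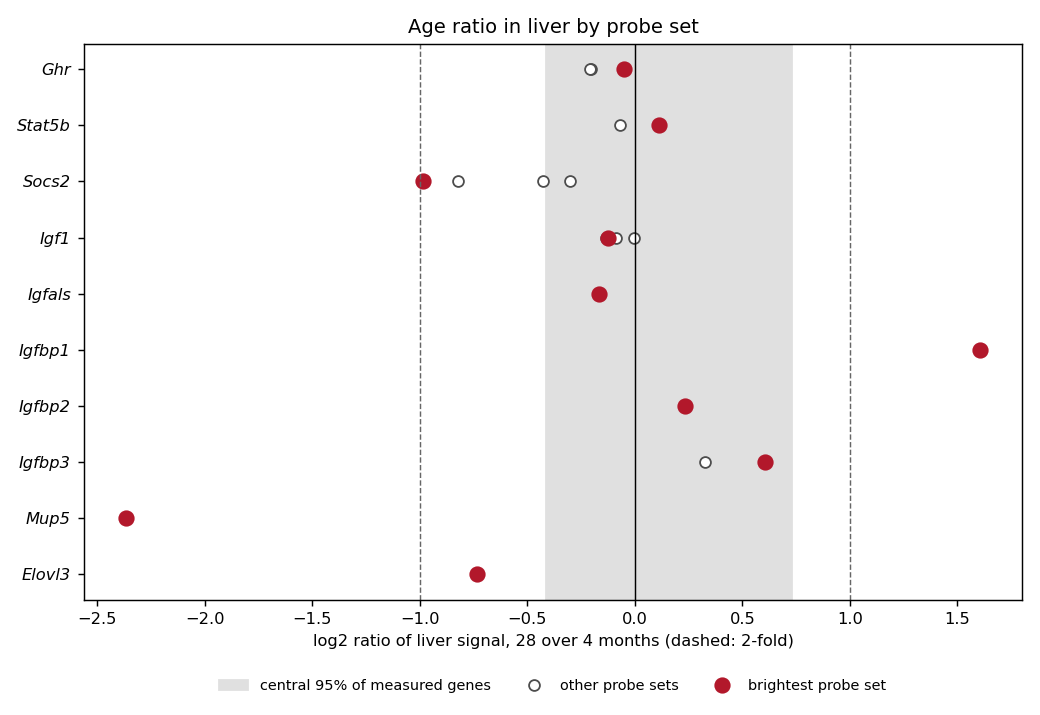
The horizontal axis gives the log2 ratio of liver signal at 28 over 4 months for each measured probe set of the 10 genes. Filled points are the brightest probe set of a gene, open points its other probe sets, dashed lines mark 2-fold and the grey band holds the central 95% of measured genes, from -0.42 to 0.73. Mup5 at -2.37, Socs2 at -0.99 and Elovl3 at -0.73 lie left of the band and Igfbp1 at 1.60 lies right of it.

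Ghr encodes the growth hormone receptor. Its brightest probe set gave 15946 units in liver at 28 months and 16518 units at 4 months, a log2 ratio of -0.05. The other Ghr probe sets gave 7856 units at 28 months and 9054 units at 4 months, and 646 units at 28 months and 748 units at 4 months. All 3 had ratios between -0.21 and -0.05, well inside the grey band of the plot of liver ratios.

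Stat5b encodes the transcription factor that carries the receptor's signal to the nucleus in liver. It had 938 units at 28 months and 868 units at 4 months, a ratio of 0.11. A second, dimmer probe set had 161 units at 28 months and 169 units at 4 months, a ratio of -0.07. Its measured sets thus differed in sign by amounts near the internal error. Its close relative Stat5a had 272 units at 28 months and 261 units at 4 months.

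Socs2 encodes a suppressor of cytokine signalling that is induced by growth hormone and restrains the receptor. Its brightest probe set had 2270 units in 28-month liver and 4492 units in 4-month liver, a ratio of -0.99. A second bright probe set had 1366 units at 28 months and 2417 units at 4 months, a ratio of -0.82. Both bright sets were therefore lower at 28 months by a similar factor. Of the 6 Socs2 probe sets 4 were measured in liver. The other 2 of these had at most 185 units on either liver array, and their ratios of -0.43 and -0.30 lay near the floor. Socs2 ranked 21 from the lowest ratio among the 12001 genes measured in liver. With the median over its probe sets in place of the brightest, its ratio was -0.42.

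Igf1 encodes IGF-1, most of which reaches the circulation from hepatocytes. Its brightest probe set had 13261 units in liver at 28 months and 14462 units at 4 months, a ratio of -0.13. The other sets had 11180 against 12286 units, 10822 against 11492 units, and 5929 against 5947 units, 28 months first in each pair. All 4 were slightly lower at 28 months, by ratios between -0.14 and -0.00. A change as large as that of the brightest set, in either direction, was found in 51.6% of measured genes.

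Igfals encodes the acid-labile subunit, which lengthens the life of IGF-1 in blood. It had 1436 units in liver at 28 months and 1614 units at 4 months, a ratio of -0.17 from its only probe set. Changes of that size or more were found in 39.1% of measured genes.

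Igfbp1 had 8524 units in liver at 28 months and 2804 units at 4 months, a ratio of 1.60. It ranked 39 from the highest ratio among the 12001 measured genes. A single probe set reads Igfbp1, so no second probe set could be compared. Genes raised in the acute phase response moved with it in liver, where 13 of 15 were above 0, 6 of them by 2-fold or more, with Saa1 at 32579 units at 28 months and 3372 units at 4 months. The 15 summed to 303891 units at 28 months and 200005 units at 4 months. Their part in the Igfbp1 value was not tested.

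Igfbp2 encodes a binding protein that in mouse liver is higher when growth hormone action is low. It had 5339 units in liver at 28 months and 4539 units at 4 months, a ratio of 0.23. A change of that size or more was found in 25.6% of measured genes.

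Igfbp3 encodes the main carrier of IGF-1 in blood and is known from rat liver to be made largely by cells other than hepatocytes. It had 1131 units at 28 months and 745 units at 4 months, a ratio of 0.60. A dimmer probe set had 709 units at 28 months and 566 units at 4 months, a ratio of 0.32. Both sets were higher at 28 months, but the brighter one was only just past 1.5-fold. Macrophage and Kupffer cell markers were all 10 above 0 in liver, with sums of 25199 units at 28 months and 13107 units at 4 months and 3 past 2-fold. Granulocyte markers summed to 3531 units at 28 months and 945 units at 4 months, with 9 of 9 above 0 and 4 past 2-fold. Of these, Mpo, Prtn3, Ngp, Camp and Ltf were under the floor at 4 months. They counted as measured through the 28-month array alone, so their ratios could only be above 0. The part of these cells in the Igfbp3 value was not tested, and in pooled tissue more cells of a type and more RNA per cell cannot be told apart.

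Mup5 encodes a member of the major urinary proteins, pheromone carriers secreted by the liver. It had 148 units in 28-month liver and 765 units in 4-month liver, a ratio of -2.37. It ranked 2 from the lowest ratio among the 12001 measured genes. The 28-month signal was close to the floor, and with the floor at percentile 75 of all signals the ratio was -0.67, short of 2-fold. Mup genes are near-identical copies, so the signal may include relatives, and Mup3 had 11972 units at 28 months and 13148 units at 4 months, a ratio of -0.14.

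Elovl3 encodes an elongase of very long fatty acids that is male-biased and rhythmic over the day in mouse liver. It had 4878 units at 28 months and 8118 units at 4 months, a ratio of -0.73. It ranked 45 from the lowest ratio among the 12001 measured genes. Clock genes, a list added after the values had been seen, showed 0 of 14 measured members past 2-fold, which Elovl3 did not reach either. Of these, 8 were above 0 and 6 below. Per1 was 1.52-fold, Per2 1.61-fold and Per3 1.55-fold higher. Per2 had 518 units at 28 months and 322 units at 4 months, and Arntl 318 units at 28 months and 437 units at 4 months. The rest of the measured clock genes had smaller ratios. Above 0 were Ciart (0.30), Cry2 (0.29), Nfil3 (0.25), Dbp (0.15) and Tef (0.08). Below 0 were Nr1d2 (-0.01), Cry1 (-0.09), Hlf (-0.13), Nr1d1 (-0.15) and Clock (-0.30). The measured probe sets of Per2 ranged from -0.01 to 0.69 and those of Per3 from -0.16 to 0.63. The part of the clock in the Elovl3 value was not tested. Among the other elongases 0 of 4 measured genes passed 2-fold, with Elovl5 at -0.45, Elovl2 at -0.24, Elovl6 at -0.11 and Elovl1 at 0.06. Over all measured genes 1.29% were 2-fold or more higher in liver and 0.167% lower, so the zeros of the clock and elongase lists say little.

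The other genes of the pathway were read from 7 lists, chosen like the members with earlier results of these data known. Of their 109 distinct genes with a probe set 88 were measured in liver, where 4 were 2-fold or more higher, against 1.29% of all measured genes, and 1 was lower, against 0.167%. Of 18 measured genes of receptor signalling and of the liver factors around it, 1 was higher and 1 was lower, with a median of -0.06. Onecut1, a hepatocyte transcription factor known in rat to be induced by growth hormone, had 1062 units in liver at 28 months and 2725 units at 4 months. Its ratio was -1.36 in both of its probe sets. Socs3, an inhibitor induced by inflammatory cytokines, had 1988 units at 28 months and 859 units at 4 months, a ratio of 1.21, and its 3 probe sets ranged from 0.83 to 1.61. Without probe sets that can read several transcripts, 0 genes of that list were 2-fold higher. Foxa1, a liver pioneer factor, was at -0.96, and Cish, a STAT5-induced inhibitor related to Socs2, was at -0.73 with 898 units at 28 months and 1493 units at 4 months. Neither Cish nor Socs2 passed 2-fold.

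In the remainder of the IGF system 0 of 23 measured genes passed 2-fold, and the median was -0.02. Over all measured genes 1.29% were 2-fold or more higher in liver and 0.167% lower. Such shares would give few or no calls in lists as small as these, so their zeros say little. The largest ratios there were those of Grb10 (-0.45), Igf2bp1 (-0.45), Irs1 (-0.40), an adaptor of the insulin and IGF receptors, and Pik3r1 (-0.29). Fasting and FOXO target genes had 1 of 10 measured members 2-fold higher and 0 lower, beside the same shares, with a median of 0.01. That gene was Pdk4, a kinase that spares glucose, at 483 units in 28-month liver and 227 units in 4-month liver, and with the floor at percentile 75 it was short of 2-fold. Tat was at 0.64, Fgf21 at -0.56, and Pck1, the rate-limiting enzyme of glucose production, at 0.43. Of that list, 5 genes were above 0 and 5 below. Genes that control growth hormone secretion had 5 of 13 members above the floor in liver, 0 past 2-fold, and these 5 had at most 157 units on either liver array.

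Of the 23 listed male-biased liver genes, 15 had a probe set of their own. All 15 were measured and 0 passed 2-fold, against 1.29% of all measured genes higher and 0.167% lower, with a median of 0.02. At such shares a 0 among 15 genes says little. Mup1, Mup2, Mup4, Mup20 and Mup21 had no such probe set, so Mup3 was the only Mup gene of the list that could be read. Hsd3b5, a steroid-metabolising enzyme of male liver, had 6752 units at 28 months and 10582 units at 4 months, a ratio of -0.65, while Susd4 was at 0.71, Nat8 at 0.68 and Nudt7 at -0.39. The measured genes of this list therefore stood on both sides of 0, and none of the 15 came near the ratio of Mup5. Of 14 measured female-biased genes 2 were 2-fold higher and 0 lower, against the same 1.29% and 0.167%, with a median of 0.17. Of these genes, Cyp2g1, Prom1 and Slc22a26 were under the floor at 4 months, so their ratios could only be above 0. Hao2 was under the floor at 28 months, so its ratio could only be below 0. Ntrk2, a neurotrophin receptor, had 1185 units at 28 months and 477 units at 4 months, but its 3 measured probe sets ranged from -0.22 to 2.24. Abcd2, a peroxisomal fatty acid transporter, had 305 units at 28 months and 127 units at 4 months, and its 2 measured probe sets stood at 0.21 and 1.26. With the median over probe sets 0 genes of the female-biased list were 2-fold higher, and with the floor at percentile 75 there was 1. Acot3 was at -0.82 and Cyp17a1 at -0.75, so members of that list stood on both sides of 0.

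**Figure D2:**
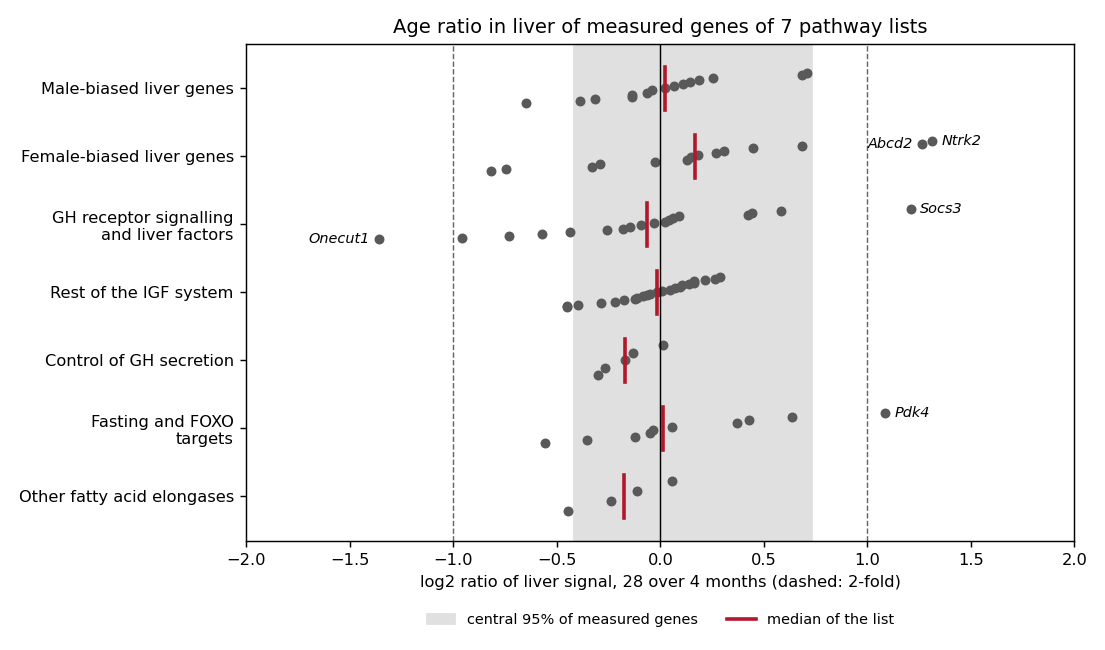
Each point is the log2 ratio of liver signal at 28 over 4 months of 1 measured gene, in rows by pathway list, with the list's median as a red bar, 2-fold as dashed lines and the grey band for the central 95% of measured genes. Named points lie past 2-fold, Onecut1 at -1.36 on the lower side and Ntrk2 (1.31), Abcd2 (1.26), Socs3 (1.21) and Pdk4 (1.09) on the higher side.

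Across tissues, 4 of the genes were seen in liver alone, 5 everywhere, and Igfbp2 in liver and distal colon. Igfals, Igfbp1, Mup5 and Elovl3 were above the floor on both liver arrays and on none of the other 8. The lower of the liver signals exceeded the floor, and so every other array, at least 44.1-fold for Elovl3, 25.3-fold for Igfbp1 and 1.34-fold for Mup5. For Igfals the lower liver signal of 1436 units stood against at most 98.5 units elsewhere. Ghr, Stat5b, Socs2, Igf1 and Igfbp3 were above the floor on all 10 arrays.

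**Figure D3:**
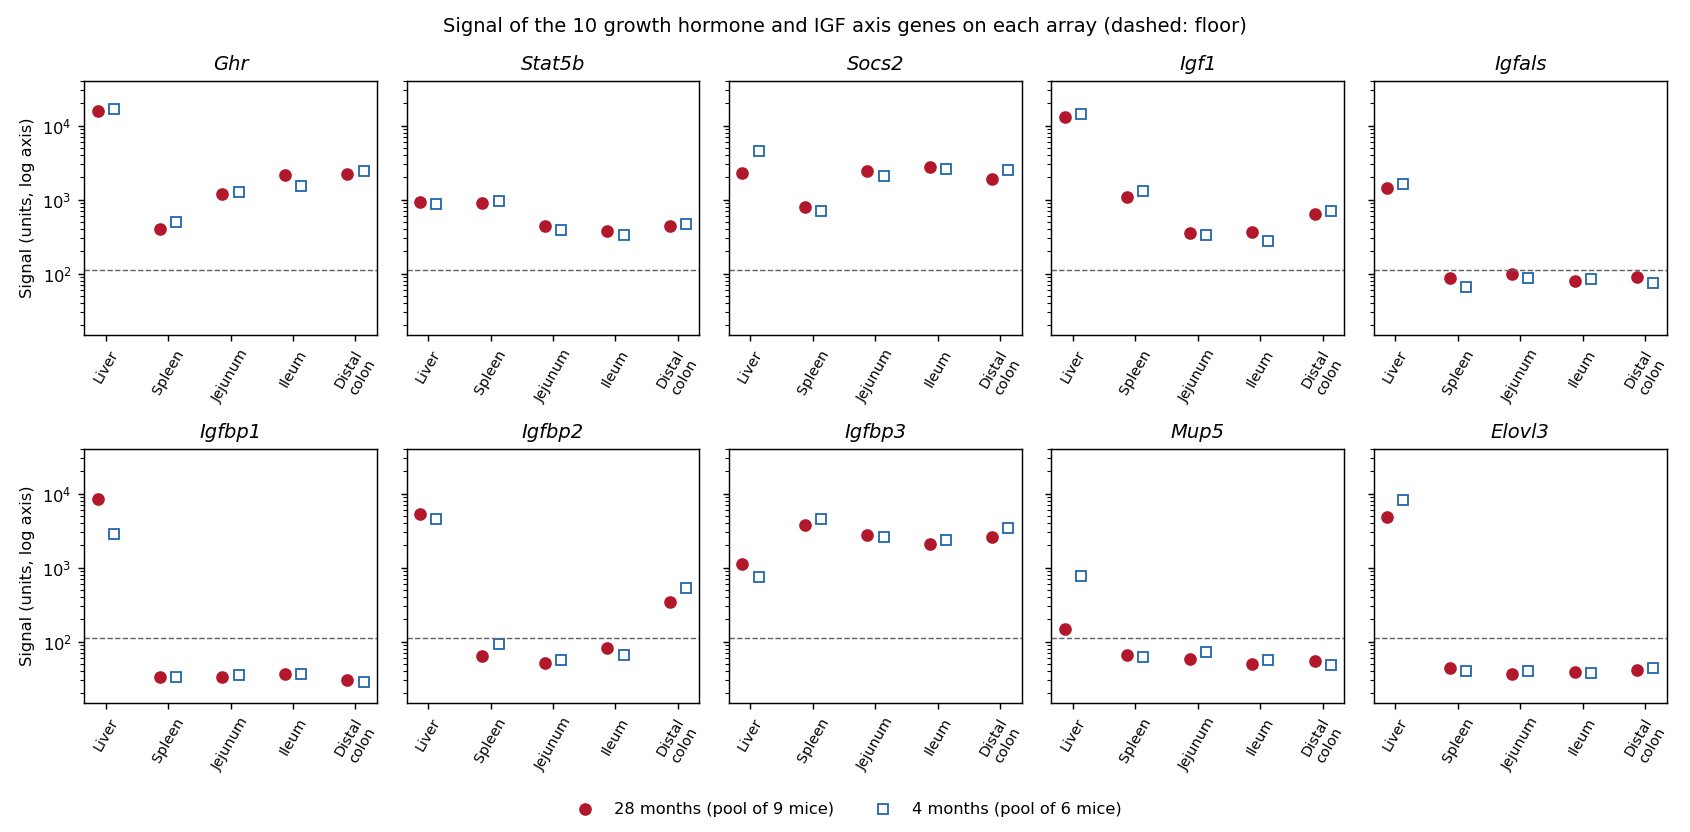
Each panel gives the signal of 1 gene in units on a log axis, for 5 tissues, with filled circles for the 28-month pool of 9 mice and open squares for the 4-month pool of 6 mice. The dashed line is the floor of 111 units. Both liver signals exceed every other array for 7 of the genes, whereas Igfbp3 is lowest there, at 1131 units at 28 months and 745 units at 4 months.

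Ghr was highest in liver, followed by distal colon with 2206 units at 28 months and 2404 units at 4 months. Ileum had 2157 units at 28 months and 1552 units at 4 months, jejunum 1204 units at 28 months and 1264 units at 4 months, and spleen 403 units at 28 months and 504 units at 4 months. No neighbouring tissues overlapped in this probe set, although distal colon and ileum lay only 1.26-fold apart on the geometric mean of both ages. Both other Ghr probe sets had ileum above distal colon, the brighter of them with 847 units at 28 months and 725 units at 4 months in ileum and 597 units at 28 months and 572 units at 4 months in distal colon. The order of these neighbours thus depended on the probe set.

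Igf1 was highest in liver and next in spleen, with 1101 units at 28 months and 1329 units at 4 months. Distal colon had 650 units at 28 months and 697 units at 4 months, jejunum 359 units at 28 months and 332 units at 4 months, and ileum 363 units at 28 months and 275 units at 4 months. Jejunum and ileum overlapped, and liver exceeded spleen 11.4-fold on the geometric mean of both ages.

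Socs2 had 2767 units at 28 months and 2582 units at 4 months in ileum. Jejunum had 2424 units at 28 months and 2087 units at 4 months, distal colon 1918 units at 28 months and 2485 units at 4 months, and spleen 806 units at 28 months and 706 units at 4 months. Its liver signal at 28 months lay within the range of the 3 intestinal segments, while that at 4 months was above every other array. The order of liver and ileum therefore depended on age, and at 28 months the second bright probe set also had its liver signal of 1366 units below the 2172 units of ileum.

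Igfbp3 had its highest signal in spleen, 3711 units at 28 months and 4583 units at 4 months. Distal colon had 2606 units at 28 months and 3412 units at 4 months, jejunum 2761 units at 28 months and 2577 units at 4 months, and ileum 2076 units at 28 months and 2391 units at 4 months. Distal colon and jejunum overlapped, and liver was the lowest of the 5 tissues at both ages.

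Stat5b had 896 units at 28 months and 958 units at 4 months in spleen, which overlapped with liver. Distal colon had 446 units at 28 months and 471 units at 4 months, jejunum 438 units at 28 months and 384 units at 4 months, and ileum 381 units at 28 months and 332 units at 4 months. Spleen and liver stood above the 3 segments of the intestine in this probe set. In the dimmer one, spleen with 153 units at 28 months and 127 units at 4 months overlapped jejunum with 143 units at 28 months and 144 units at 4 months. Igfbp2 had 344 units in distal colon at 28 months and 531 units at 4 months, a ratio of -0.63, against at most 92.4 units in spleen, jejunum and ileum.

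Outside liver no measured member reached 2-fold in either direction, and at 1.5-fold Igfbp2 was lower in distal colon, against 2.35% of genes lower and 2.57% higher there. In spleen 0 of 5 measured members were higher and 0 lower, against 0.528% and 0.411% of 11925 measured genes, and the members' median was -0.27 beside 0.01 for all genes. The pancreatic acinar markers given above were lower in the same comparison, with a median of -5.23. Granulocyte markers summed to 42995 units at 28 months and 16825 units at 4 months in spleen, with 7 of 9 past 2-fold higher. The part of these cells in the spleen ratios of Ghr, Igf1 and Igfbp3 was not tested. In jejunum the count was also 0 of 5 each way, against 0.252% and 1.02%, with a median of 0.11 beside 0.03. Ileum gave 0 of 5 each way, against 0.888% and 1.66%, with a median of 0.20 beside 0.03. Distal colon gave 0 of 6 each way, against 0.51% and 0.526%, with a median of -0.25 beside 0.03. Such small backgrounds would give few or no calls among 5 or 6 genes, so these zeros say little about the members.

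The ratios of the same gene differed in sign between tissues. Ghr was at 0.47 in ileum and at -0.32 in spleen, and Igf1 at 0.40 in ileum and at -0.27 in spleen. Igfbp3 was at 0.60 in liver and at -0.39 in distal colon, -0.30 in spleen and -0.20 in ileum. The decrease of Socs2 in liver stood beside 0.22 in jejunum, 0.19 in spleen, 0.10 in ileum and -0.37 in distal colon. The differences between tissues were not tested, since each tissue has 1 array per age. In the intestine age also cannot be told apart from the separate numbering of the 28-month arrays. Probe sets disagreed on some of these values. The other Ghr probe set measured in spleen was at 0.21, the other 2 Igf1 probe sets measured in ileum were both at 0.05, and the Igf1 probe sets in distal colon ranged from -0.29 to 0.53. Marker lists of other cells moved in the same tissues. Smooth muscle markers were above 0 in ileum for 7 of 7 genes, with sums of 25255 units at 28 months and 14496 units at 4 months. Enterocyte markers were 2-fold or more lower in ileum for 3 of 7, with sums of 72081 units at 28 months and 123269 units at 4 months. Of these 7 markers, 2 were above 0. Ileal enterocyte markers went the other way in ileum, with 5 of 5 above 0 and 2 of them 2-fold or more higher. They summed to 59480 units at 28 months and 31858 units at 4 months. Smooth muscle markers were below 0 in distal colon for 7 of 7, with sums of 49900 units at 28 months and 72069 units at 4 months. Their part in the ratios of Ghr, Igf1 and Igfbp3 was not tested.

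**Figure D4:**
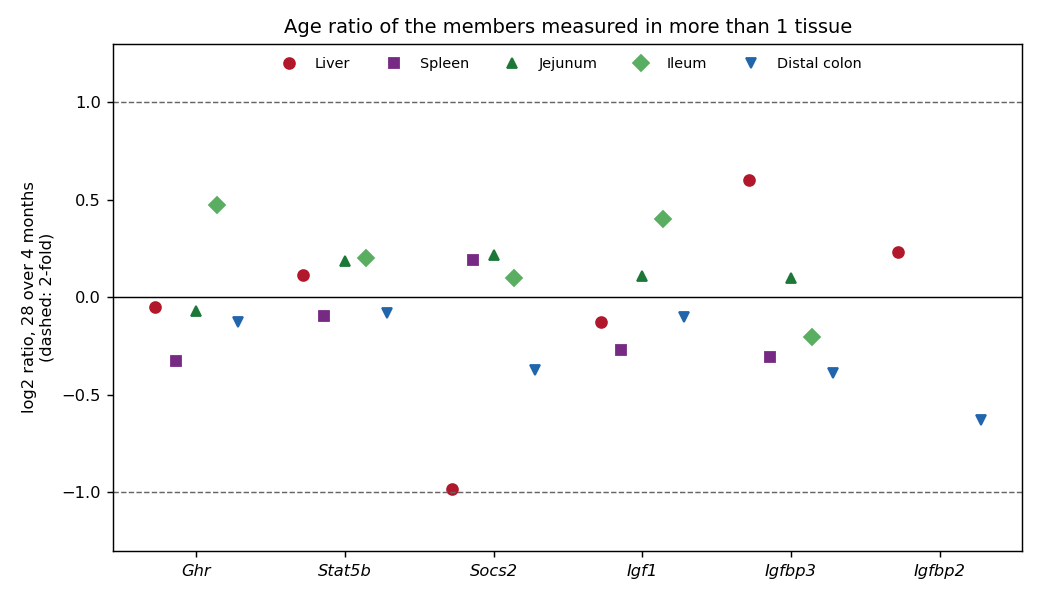
The vertical axis is the log2 ratio of signal at 28 over 4 months for the 6 genes measured in more than 1 tissue, with a symbol for each tissue and 2-fold as dashed lines. Liver Socs2 at -0.99 lies nearest to 2-fold, and the remaining points lie between -0.63 and 0.60.

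With tissue as a block, limma was fitted to all 13995 genes above the floor on any array, so that the 5 tissues stood in for replicates. The mice of an age may be the same in every tissue, and the tissues are then not independent. The SEs, intervals and p-values below therefore do not measure the spread between animals. The fit called 0 members and 0 genes at either sign (0.0% each way). At an unadjusted limma p under 0.05 there were 971 of 13995 genes and 0 of 10 members. So small a share would give few or no calls among 10 genes, so this 0 says little about the members. Igfals, Igfbp1, Mup5 and Elovl3 were set to a ratio of 0 outside liver by the floor, so the fit could not show a shared change of these 4 genes. Socs2 gave a mean log2 ratio over tissues of -0.17 ± 0.19 (SE, limma, adjusted p = 0.82), with a 95% interval from -0.64 to 0.30. Igf1 gave 0.00 ± 0.10 (SE, limma, adjusted p = 0.996), with an interval from -0.25 to 0.26. Stat5b had the smallest limma adjusted p of the 6 genes measured in more than 1 tissue, 0.811. Leaving out 1 tissue at a time, the smallest adjusted p of any member ranged from 0.647 without spleen to 0.919 without jejunum, and with the median over probe sets limma called 1 gene, which was no member. The fit says nothing about liver by itself.

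Correlations were taken over the 10 arrays in log2 signal after signals under the floor were raised to it. Among all genes above the floor on any array, 31 had a Pearson r with Igfals that rounded to 1.0000. Albfm1, Ugt3a2 and Slc10a1 headed this near tie. Igfals was under the floor on every array outside liver. A gene seen in liver alone, with similar signals at both ages, therefore gets an r near 1 by construction. The genes most like Igfbp2 were Ak4 (r = 0.9980), Dnase2a (0.9966) and Cyp2d13 (0.9952). These correlations describe the contrast between liver and the other tissues, since the 10 points are pairs of arrays from 5 tissues.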

How the data were processed

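Each of the 10 columns, 1 per pooled RNA, held log2 signals of 45101 probe sets, already normalised between arrays by the authors before they were deposited. The submitters' processing notes name MAS5 and affy, with no version and no role for either, so the method itself stays unknown. That the logarithm has base 2 was read from the values, which lay between 2.71 and 14.8.

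Values were taken out of the log, scaled to a mean of 500 units after trimming 2% at each end, and floored at 111 units. Of the probe sets 34958 named 1 gene, 932 several and 9211 were not in the annotation. Genes were called measured where the brightest probe set exceeded the floor at 28 or 4 months. Of 244 pathway and marker genes 216 had a probe set of their own, and the others are not analysed here. Named genes were all members, every pathway gene past 2-fold in liver and otherwise up to 4 per list with the largest ratios, up to 3 marker genes per list by signal, and the 3 genes most correlated with Igfals and with Igfbp2. Stat5a, Mup3, genes under the floor at 1 age and the clock genes, a list added after values were seen, were named outside that rule. The members and lists were chosen with earlier results of these data known. The fold rule and limma were tested on simulated data. Alternatives were other floors, scalings, fold thresholds and probe set rules, and limma without each tissue. Promoter sequences were those of RefSeq, build GRCm38.p6. Computation used Python 3.11.15, numpy 2.4.6, pandas 2.3.3, statsmodels 0.14.6, R 4.3.3 and limma 3.58.1.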

Additional observations from a re-analysis of the deposited data

Results flagged for a closer look

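Each of the following genes was at least 1.5-fold higher at 28 months in 1 tissue and at least 1.5-fold lower in another, with 1 array per tissue and age, so the differences between tissues were not tested. Socs3 had log2 ratios of 1.21 in liver and 1.20 in spleen, and of -0.79 in jejunum, -0.73 in ileum and -1.38 in distal colon. Its lower ratios were those of the tissues whose 28-month arrays are numbered apart, so age and that numbering cannot be told apart there. Foxa1 was at -0.96 in liver and at 0.99 in ileum. Nat8 was at 0.68 in liver, 0.59 in distal colon and -0.60 in ileum. Tat was at 0.64 in liver and -0.72 in ileum. In ileum its signal was 91.7 units at 28 months, under the floor, and 182 units at 4 months, so that ratio depends on the floor. Groups of 1 array could not be searched for outlying samples. Only the members and the pathway genes named by the rule were searched, and 0 of the 10 growth hormone and IGF axis genes met the condition. Igfals, Igfbp1, Mup5 and Elovl3 were measured in liver alone and could not meet it, so this 0 says little.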

How the results depend on the processing

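Alternatives changed 1 setting at a time, and of the recomputed counts of members, of all genes and of pathway genes 132 stayed within 1.5 times their value and 16 did not. Of the counts per pathway list 126 stayed and 14 did not, and of the member ratios in liver 72 stayed within the internal error and 5 did not. The members' median in liver lay between -0.17, without probe sets that can read several transcripts, and -0.03, with scaling to equal medians. With the floor at percentile 75 (481 units) the members 2-fold lower in liver dropped to 0, since Mup5 was then at -0.67, and the genes higher and lower in liver numbered 56 and 8 and the pathway genes higher 2. The median over probe sets also gave 2 pathway genes higher. A threshold of 1.5-fold gave 2 members higher and 3 lower in liver, 1 lower in distal colon, 480 and 96 genes, and 8 and 6 pathway genes. A threshold of 3-fold gave 40 and 5 genes and 0 pathway genes each way. No member value that was 2-fold apart changed sign. Igfbp1 stayed 2-fold or more higher under every floor, scaling and probe set rule tried. Its single probe set lay above every floor on both liver arrays, so floors and probe set rules could not move its ratio. Under the other scalings its log2 ratio was 1.60 with quantile normalisation, 1.63 with lowess and 1.66 with equal medians. Without probe sets that can read several transcripts, Ghr, Igfbp2 and Stat5b had no value. Leaving out each tissue from limma gave 0 members called each time. The limma fit already sets the ages side by side within each tissue, and beyond that no paired analysis was possible because the labels give no replicate numbers. Signals near the floor, such as Mup5 at 28 months, have ratios that depend on it.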
